A study of Homo sapiens with 6 samples.

Results

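The adenylate kinase genes were followed in human cardiomyocytes kept in 2 culture media. The set held 8 genes, AK1 and AK3 to AK9, chosen by symbol from the 38557 genes listed in the count files, and 7 of them passed the filter on low counts, the exception being AK5. The set was picked because of AK4, which had stood out in the comparison of the media. The levels and the difference of AK4 are therefore given as a description with no test. The other 7 genes came with the family name and not through their values.

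The cells were made from the established human induced pluripotent stem cell line WTC11, wild type in every culture, so a single line underlies all results. RPMI plus B27 (B27 is a serum-free supplement) and DMEM plus fatty acids were the media, with 3 biological replicates each, numbered 1 to 3 in both, and messenger RNA was sequenced from all 6 cultures with a strand-specific kit, giving 23232324 to 31035389 gene counts per library. The labels give no composition of the media, no time in culture and no step that purified the cardiomyocytes. They do not say whether replicates came from separate differentiations, so the tests measure the spread between these cultures. All 13 cardiomyocyte markers were detected in every library, with a summed level of 32402 to 37059 CPM (counts relative to the library total, after TMM scaling, a correction for differences in RNA composition) in RPMI plus B27, against 24861 to 35605 CPM in DMEM plus fatty acids.

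Adenylate kinases pass a phosphate between adenine nucleotides, turning ATP and AMP into a pair of ADP molecules and back. In heart muscle this reaction recovers ATP from ADP when demand is high, and the AMP it yields activates AMP-activated protein kinase (AMPK), a sensor of energy shortage. AK1 is the main cytosolic form of muscle. AK3 and AK4 lie in the mitochondrial matrix, where AK3 uses GTP to phosphorylate AMP, while AK4 has little enzymatic activity in most assays and is a known target of the hypoxia-inducible factor HIF-1.

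AK4 lies on chromosome 1 (GRCh38, GENCODE 29, chr1:65147549-65232145, plus strand). The 250 bases before its first annotated start (RefSeq, GRCh38.p14, chr1:65147302-65147551, plus strand) are shown because AK4 was the member with the large difference and because HIF-1 is known to bind the core letters ACGTG or GCGTG. Capitals mark every match to ACGTG or GCGTG on either strand.
AK4: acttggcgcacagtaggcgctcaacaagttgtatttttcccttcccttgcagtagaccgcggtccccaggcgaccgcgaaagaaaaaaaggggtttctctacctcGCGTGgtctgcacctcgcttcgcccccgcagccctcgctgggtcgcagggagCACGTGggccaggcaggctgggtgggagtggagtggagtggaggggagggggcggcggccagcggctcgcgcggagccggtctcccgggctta
The window held GCGTG once, with its first base 145 bases before the start. It also held CACGTG with its first base 93 bases before the start, and this palindrome is read as ACGTG on both strands. Among 35116 windows of 250 bases before RefSeq starts, 18.5% held ACGTG, 32.2% held GCGTG, 7.52% held both and 6.35% held CACGTG. At least 1 of ACGTG and GCGTG was held by 43.2% of these windows. The GCGTG letters were also found before 2 of the 3 later annotated starts of AK4. Such letters were also found before starts of other members: AK6 and AK9 had ACGTG, in AK6 also within a CACGTG 9 bases before its second start, AK1, AK7 and AK8 had GCGTG, and AK5 had both across its 2 annotated starts. Neither motif was found before the 2 annotated starts of AK3. These matches describe letters in a window and were not measured as binding.

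AK4 was lower in DMEM plus fatty acids. Its level was 207.6, 175.1 and 175.1 CPM in RPMI plus B27 replicates 1, 2 and 3, and 51.9, 45.1 and 42.9 CPM in DMEM plus fatty acids replicates 1, 2 and 3. The lowest RPMI plus B27 library was above the highest DMEM plus fatty acids library, and replicate 1 was the highest of its medium in both. The means were 186.0 ± 18.8 and 46.6 ± 4.67 CPM (SD, n = 3 each), a 3.99-fold lower level, or a log2 fold change of -1.995 ± 0.13 (SE). Counts of 1205 to 5511 per library stood behind these values. Counting error alone would thus give a coefficient of variation (CV, the SD over the mean) of 1.35% to 2.88% per library. The measured CVs were 10.1% in RPMI plus B27, against 10.003% in DMEM plus fatty acids.

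The difference was nearly the same size for each replicate number. The ratio of the level in DMEM plus fatty acids to that in RPMI plus B27 was 0.250 for replicate 1, 0.258 for replicate 2 and 0.245 for replicate 3. Of the 3313 tested genes whose mean level lay within 2-fold of that of AK4, 39.6% had a CV at or below that of AK4 in RPMI plus B27, against 53.2% in DMEM plus fatty acids. Without any 1 library, the log2 fold change of AK4 lay between -2.08 and -1.91.

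**Figure D1:**
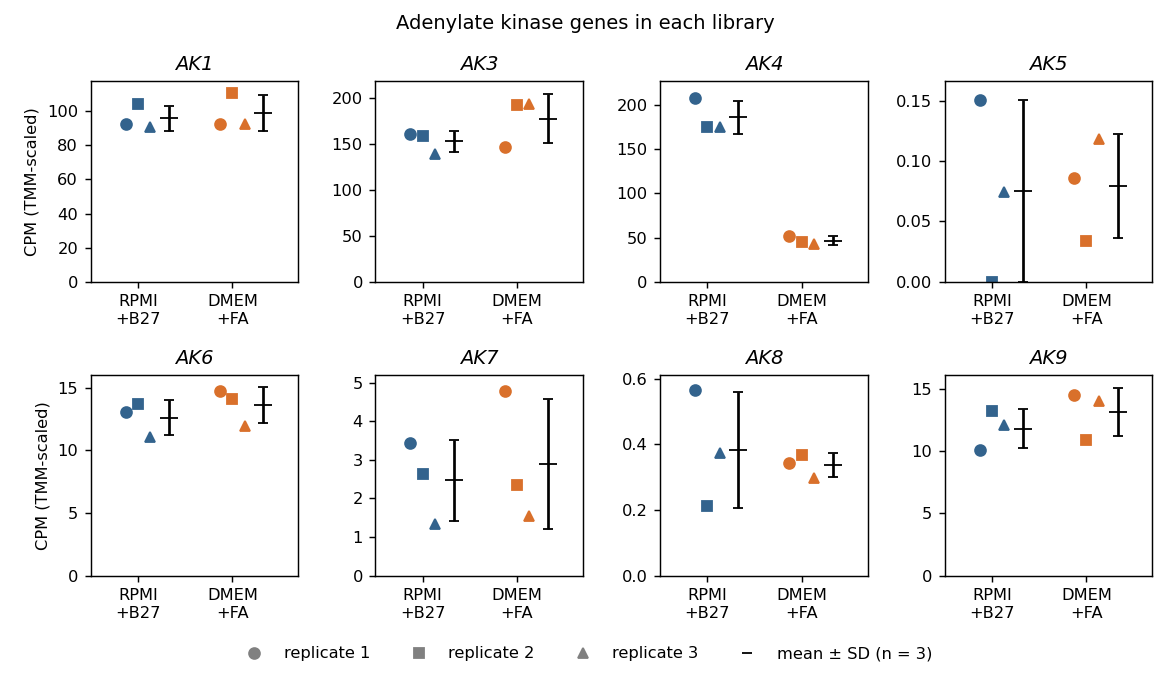
Level of each adenylate kinase gene in CPM (vertical axes, linear, from 0) in the libraries of RPMI plus B27 (blue) and DMEM plus fatty acids (DMEM+FA, orange); symbols mark replicates 1 to 3 and black bars the mean ± SD of 3 libraries. AK4 is the gene whose media do not overlap, at 175.1 to 207.6 against 42.9 to 51.9 CPM.

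The partner of AK4 in the matrix, AK3 (chr9:4709559-4742043, minus strand), did not pass the test. Its level was 160.5, 158.9 and 139.5 CPM in RPMI plus B27 replicates 1 to 3, and 146.5, 193.0 and 194.0 CPM in DMEM plus fatty acids replicates 1 to 3. The media overlapped through DMEM plus fatty acids replicate 1, and 2 of 3 replicate numbers were higher in DMEM plus fatty acids. The log2 fold change was 0.22 ± 0.15 (SE, adjusted p = 0.479, edgeR quasi-likelihood test), and its 95% interval of -0.12 to 0.56 reaches from a ratio of 0.919 to 1.47.

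AK1 (chr9:127866480-127877743, minus strand), the cytosolic enzyme, differed between the media by less than the spread of replicates. It was at 92.3, 103.9 and 90.9 CPM in RPMI plus B27 and at 92.5, 110.9 and 92.7 CPM in DMEM plus fatty acids, with replicate 2 the highest in both. The log2 fold change was 0.04 ± 0.12 (SE, adjusted p = 0.882, edgeR), with a 95% interval of -0.24 to 0.33. It was -0.046 without DMEM plus fatty acids replicate 2. The interval leaves room for ratios of 0.846 to 1.26 and does not reach the size of the AK4 difference.

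AK6 (chr5:69350984-69370013, minus strand) is a nuclear adenylate kinase with a role in ribosome maturation. It was at 13.1, 13.7 and 11.1 CPM in RPMI plus B27, against 14.8, 14.1 and 12.0 CPM in DMEM plus fatty acids. The media overlapped, and the log2 fold change was 0.11 ± 0.17 (SE, adjusted p = 0.785, edgeR, 95% interval -0.29 to 0.51). Its gene overlaps TAF9, a transcription factor subunit gene, on the same strand, so reads from the shared part cannot be assigned to one of them. TAF9 itself was at 51.3 ± 3.86 and 61.4 ± 8.71 CPM (SD, n = 3 each, log2 fold change 0.26 ± 0.14, adjusted p = 0.384, edgeR).

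AK9 (chr6:109492856-109691217, minus strand), a long protein with several kinase domains, was at 10.1, 13.2 and 12.1 CPM in RPMI plus B27, against 14.5, 10.9 and 14.0 CPM in DMEM plus fatty acids. The ranges overlapped, with a log2 fold change of 0.16 ± 0.19 (SE, adjusted p = 0.717, edgeR, 95% interval -0.29 to 0.60).

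AK7 (chr14:96392111-96489427, plus strand) and AK8 (chr9:132725578-132878777, minus strand) are known from motile cilia, and AK5 (chr1:77282051-77559969, plus strand) from brain. AK7 was at 3.43, 2.64 and 1.34 CPM in RPMI plus B27 replicates 1 to 3 and at 4.78, 2.34 and 1.54 CPM in DMEM plus fatty acids replicates 1 to 3. Its libraries differed more between replicate numbers than between media, replicate 1 being the highest and replicate 3 the lowest in both. The CVs of 42.7% and 58.4% exceeded the 9.49% to 16.7% that counting error gives for its 36 to 111 counts. The log2 fold change was 0.22 ± 0.51 (SE, adjusted p = 0.862, edgeR) with a 95% interval of -0.97 to 1.40, which includes ratios of 0.510 to 2.65. It was -0.08 without RPMI plus B27 replicate 3 and -0.35 without DMEM plus fatty acids replicate 1.

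AK8 had 5 to 15 counts per library, or 0.213 to 0.565 CPM in RPMI plus B27, against 0.296 to 0.368 CPM in DMEM plus fatty acids. Its log2 fold change of -0.20 ± 0.44 (SE, adjusted p = 0.852, edgeR, 95% interval -1.24 to 0.84) was 0.18 without RPMI plus B27 replicate 1. AK5 had 0 to 4 counts per library and was not tested. Its count of 0 in RPMI plus B27 replicate 2 allows up to 0.128 CPM, and its highest level was 0.151 CPM. Of 12 motile cilia markers, 9 were under 1 CPM in all 6 libraries, among them the ciliary regulator FOXJ1 at 0.0334 to 0.485 CPM. The list summed to 12.5 to 13.6 CPM in RPMI plus B27, against 16.5 to 17.9 CPM in DMEM plus fatty acids. Most of it was CCDC40, at 9.19 to 9.61 CPM in RPMI plus B27, against 12.2 to 13.6 CPM in DMEM plus fatty acids. CCDC40 had a log2 fold change of 0.47 ± 0.15 (SE, adjusted p = 0.184, edgeR). FOXJ1, which was not tested, had the lower mean in DMEM plus fatty acids (0.365 and 0.104 CPM). Of 9 neuronal markers, 5 were under 1 CPM in all libraries. That list summed to 38.3 to 52.1 CPM in RPMI plus B27, against 24.6 to 38.7 CPM in DMEM plus fatty acids. The highest over the 6 libraries were TUBB3 (8.65 to 16.7 CPM), SNAP25 (3.10 to 18.3 CPM), SYT1 (5.68 to 11.0 CPM) and MAP2 (1.16 to 7.01 CPM).

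None of the 6 tested members besides AK4 passed an adjusted p of 0.05 (0 of 6 by edgeR, 0 at an unadjusted p under 0.05 and 0 by the DESeq2 Wald test). Over all 16107 genes tested, 1.36% passed in either direction. The media overlapped in CPM for all 6 of these members, while they did not overlap for 25.6% of all tested genes. AK4, picked for its difference, is left out of this count. The summed level of the 7 members other than AK4 was 276.0 ± 19.0 CPM in RPMI plus B27, against 306.6 ± 29.9 CPM in DMEM plus fatty acids (mean ± SD, n = 3 each). With AK4 the sums were 462.0 ± 29.1 and 353.3 ± 26.0 CPM, and AK4 alone made up the difference in which RPMI plus B27 was higher.

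The make-up of the family differed accordingly. AK4 held 42.6%, 37.4% and 40.7% of the counts of the 8 genes in RPMI plus B27 replicates 1 to 3 (95% Wilson intervals within 36.5% to 43.4%), and 15.9%, 12.0% and 12.0% in DMEM plus fatty acids (within 11.4% to 16.8%). These intervals cover counting error only. AK3 went from 33.1% ± 0.80 to 50.2% ± 4.71 of the counts and AK1 from 20.7% ± 1.67 to 27.9% ± 1.81 (SD, n = 3 each). These 2 shares must grow when that of AK4 shrinks. Because AK4 has a long transcript, its share was smaller per exon length, 24.0% ± 2.05 in RPMI plus B27, against 6.81% ± 1.20 in DMEM plus fatty acids.

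Without AK4 the balance of the matrix and the cytosolic enzyme was compared directly. AK3 made up 63.5%, 60.5% and 60.6% of the AK1 plus AK3 counts in RPMI plus B27 replicates 1 to 3, and 61.3%, 63.5% and 67.7% in DMEM plus fatty acids replicates 1 to 3. The media overlapped, and the means of 61.5% ± 1.71 and 64.2% ± 3.23 (SD, n = 3 each) differed by 2.66 percentage points. An exact two-sided permutation test gave p = 0.2, where 3 against 3 libraries cannot go below 0.1. Without DMEM plus fatty acids replicate 3 the difference was 0.906 points.

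**Figure D2:**
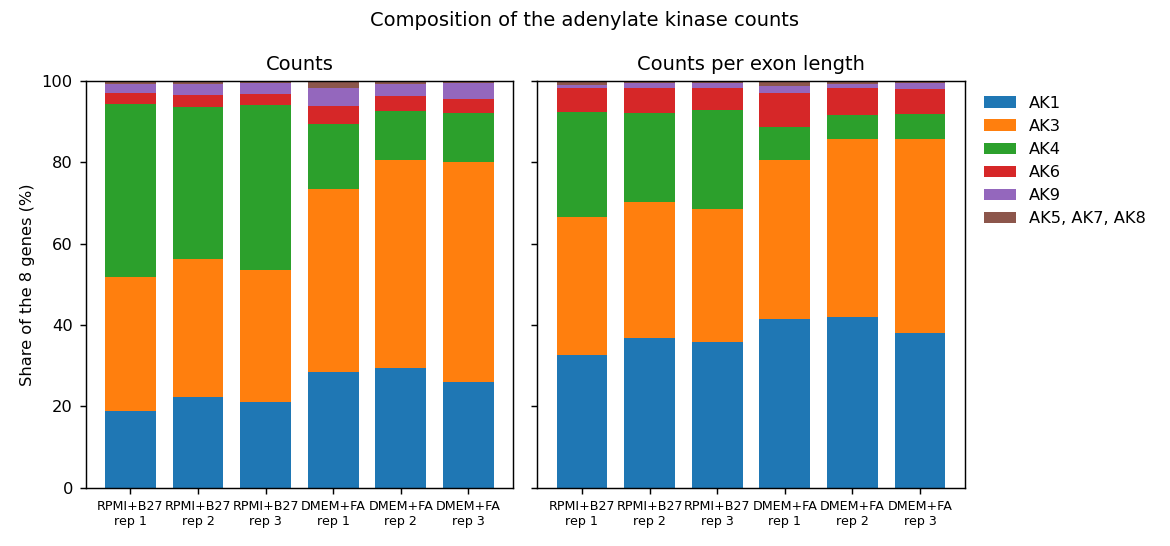
Share of each gene in the summed counts of the 8 adenylate kinase genes (left) and in the counts divided by exon length (right), in percent, with 1 bar per library (rep, replicate). AK4 (green) holds 37.4% to 42.6% of the counts in RPMI plus B27, against 12.0% to 15.9% in DMEM plus fatty acids, and AK1 (blue) and AK3 (orange) make up most of the rest.

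Levels between genes were compared as CPM per kilobase of exon in GENCODE 29, which may differ from the annotation used for counting. In RPMI plus B27, AK1 (35.9 ± 2.68) and AK3 (34.1 ± 2.60) led with overlapping ranges, followed by AK4 at 24.5 ± 2.48 (SD, n = 3 each). AK6 (5.84), AK9 (1.17), AK7 (0.494), AK8 (0.140) and AK5 (0.0109) came next in that order of means. In DMEM plus fatty acids, AK3 (39.7 ± 6.06) and AK1 (37.0 ± 3.96) again overlapped. There AK4 stood at 6.16 ± 0.62 and could not be separated from AK6 at 6.30 ± 0.68. The order of the lower genes by mean was the same in both media, and the ranges of neighbours among AK6, AK9, AK7, AK8 and AK5 did not overlap.

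The genes of the 16107 tested whose log2 CPM ran most closely with AK4 over the 6 libraries were PELI1, SORT1, SLC2A14, JADE1 and RSPH9, with Pearson's r of 0.993 to 0.994. Such values are descriptions, since the 6 libraries fall into 2 media and many genes were searched. SORT1, which encodes the sorting receptor sortilin, was at 455.1 ± 6.55 and 260.0 ± 16.7 CPM, and JADE1 at 37.8 ± 1.51 and 20.1 ± 1.59 CPM (RPMI plus B27 and DMEM plus fatty acids, SD, n = 3 each). SLC2A14, a glucose transporter gene, was at 4.74 ± 0.85 and 1.54 ± 0.20 CPM, and as a near copy of SLC2A3 its counts are uncertain. When each library was taken as its deviation from the mean of its medium, the genes closest to AK4 were C6orf223, RAPGEF4, MYBPC3, SEC24D and CLCN3 (r of 0.997 to 0.999). None of these was among the first 5. For AK1 the closest genes were KIAA0319, GNAO1, MRPL45P2, NDUFA7 and PGAP1 (r of 0.977 to 0.990), and for AK3 they were C11orf1, PDK4, SMCO4, NQO1 and GRK3 (r of 0.975 to 0.990). PDK4, a kinase that shuts pyruvate dehydrogenase, was at 4.44 ± 1.90 and 10.8 ± 6.25 CPM.

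Genes of the hypoxia response, to which AK4 is known to belong, were mostly lower in DMEM plus fatty acids. Of 20 genes listed, 19 were tested and 18 of these had a lower fitted level, with a median log2 fold change of -1.24. Over all tested genes, 49% had a lower fitted level and the median was 0.01. By edgeR 4 fell (LDHA, BNIP3, PFKFB3 and P4HA2) and 0 rose, where 1.07% of all genes fell. A fit that blocked on the replicate number gave 11 that fell, where 3.42% of all genes did. By the DESeq2 Wald test 13 fell, where 5.13% of all genes did. The count was 3 without RPMI plus B27 replicate 3, and 0 without each of the other 5 libraries in turn.

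LDHA, the lactate dehydrogenase subunit that favours lactate formation, was at 1385 ± 506.3 and 288.4 ± 91.9 CPM and fell by 2.26 ± 0.32 on the log2 scale (adjusted p = 0.0347, edgeR; 7.14e-10 to 0.115 over the alternatives). BNIP3, a mitophagy receptor, fell from 196.3 ± 71.3 to 47.8 ± 16.3 CPM (-2.04 ± 0.32, adjusted p = 0.0402 by edgeR). P4HA2, a collagen prolyl hydroxylase, fell from 74.7 ± 11.3 to 35.4 ± 7.55 CPM (-1.08 ± 0.19, adjusted p = 0.0480 by edgeR), and PFKFB3, which makes the activator of phosphofructokinase, from 60.4 ± 15.6 to 22.5 ± 5.43 CPM (-1.43 ± 0.25, adjusted p = 0.0471, SD, n = 3 each, edgeR). The fold change of AK4 was thus close to that of BNIP3, at a smaller relative spread. The 7 further genes that passed with the block and not without it were P4HA1, SLC2A3, PGK1, EGLN1, EGLN3, KDM3A and BNIP3L, with log2 fold changes of -1.64 (EGLN3) to -0.52 (BNIP3L) and adjusted p values of 0.0593 to 0.127 without it by edgeR. Each of the 7 also passed in 1 to 3 of the other alternatives. VEGFA (-0.30 ± 0.46) and ADM (0.09 ± 0.29), both textbook hypoxia genes, had adjusted p values of 0.777 and 0.901.

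The hypoxia genes varied more between replicates than AK4 did, which is a description only, since AK4 was picked for standing out between the media. Their median CV was 35.9% in RPMI plus B27, against 21.9% in DMEM plus fatty acids, and 2 and 3 of the 19 had a CV at or below that of AK4. Replicate 1 was the highest library of both media for 15 of the 19, as it was for AK4, where 19.7% of all tested genes had that pattern. NDRG1 is an extreme, running from 9.43 to 123.5 CPM within RPMI plus B27, a range that overlapped DMEM plus fatty acids.

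**Figure D3:**
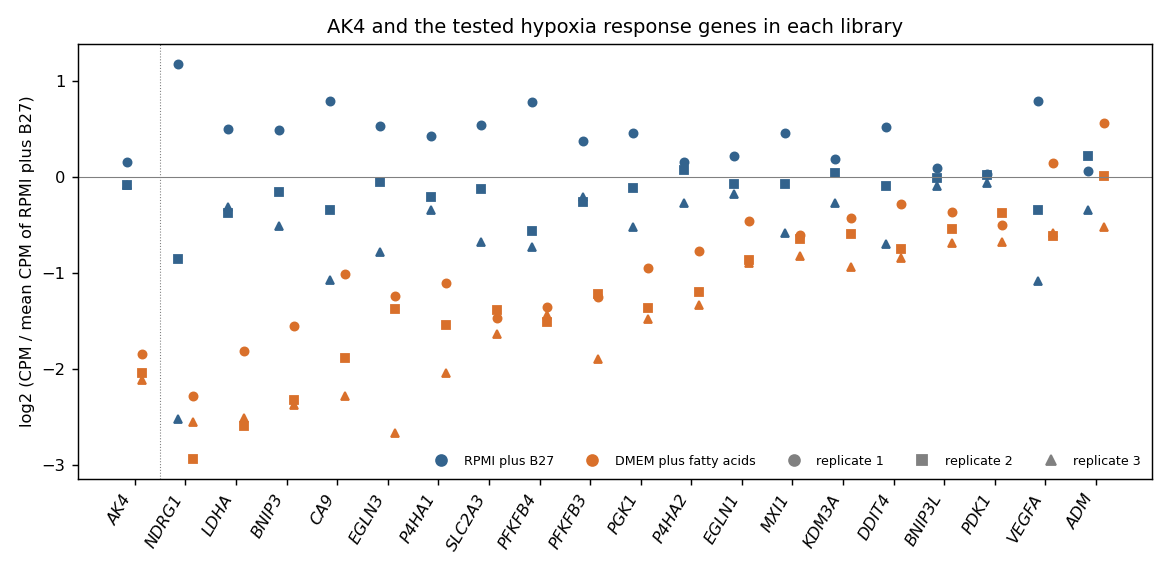
AK4 (left of the dotted line) and the 19 tested hypoxia response genes in each library, as log2 of CPM over the mean CPM of RPMI plus B27, ordered by fitted fold change; colour marks the medium and symbol the replicate number. The DMEM plus fatty acids libraries of AK4 lie close together and far from those of RPMI plus B27, while NDRG1, VEGFA, ADM, CA9 and DDIT4 overlap between media.

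The wider network of adenine nucleotide metabolism was taken as 59 genes in 4 lists, of which 54 were tested. By edgeR 0 of 54 passed, 13 had an unadjusted p under 0.05, and 7 passed by the DESeq2 Wald test (3 higher, 4 lower). Over all tested genes, 17.7% had an unadjusted p under 0.05 and 7.52% passed by DESeq2. The median log2 fold change was 0.01, the same as over all genes. Blocking on the replicate number, 5 of 54 passed, 2 higher and 3 lower, where 4.78% of all genes passed.

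Among 15 tested phosphotransfer kinases (creatine kinases and kinases of other nucleotides), CKM, the muscle creatine kinase, was at 510.8, 545.7 and 411.8 CPM in RPMI plus B27, against 919.4, 793.4 and 661.2 CPM in DMEM plus fatty acids. Every DMEM plus fatty acids library was above every RPMI plus B27 library. The log2 fold change was 0.69 ± 0.18, with an adjusted p of 0.112 by edgeR and 0.0438 with the block (0.0135 to 0.272 over all alternatives). Mitochondrial CKMT2 and brain-type CKB had log2 fold changes of 0.00 ± 0.19 and 0.24 ± 0.20 (adjusted p = 0.999 and 0.576, edgeR). The other mitochondrial creatine kinase genes, CKMT1A and CKMT1B, are near-identical copies whose counts are uncertain. CKMT1A was at 0.151 to 0.383 CPM in RPMI plus B27, against 0.652 to 1.04 CPM in DMEM plus fatty acids (1.54 ± 0.44, adjusted p = 0.141, edgeR). CKMT1B was at 0.377 to 0.723 and 1.24 to 2.24 CPM (1.52 ± 0.39, adjusted p = 0.115, edgeR). Neither gene overlapped between the media.

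Among 16 tested genes of AMP and adenosine turnover, 0 passed by edgeR and 3 fell with the block, where 3.42% of all genes did. These 3 also passed in 1 or 2 of the other alternatives. AMPD2, an AMP deaminase, was at 67.1 ± 21.5 and 39.4 ± 4.29 CPM (log2 fold change -0.77 ± 0.22, adjusted p = 0.148 by edgeR, 0.0410 with the block and 0.0406 to 0.343 over all alternatives). PNP, purine nucleoside phosphorylase, was at 8.50 ± 1.38 and 3.53 ± 1.05 CPM (-1.27 ± 0.28, adjusted p = 0.0808 by edgeR, 0.0359 with the block and 0.000825 to 0.246 over all alternatives, SD, n = 3 each). NT5E, the cell surface enzyme that makes adenosine from AMP and also a marker of stromal cells, was at 10.4, 1.32 and 0.746 CPM in RPMI plus B27, against 0.0431, 0.134 and 0.0296 CPM in DMEM plus fatty acids (adjusted p = 0.0830 by edgeR, 0.0255 with the block and 8.25e-06 to 0.213 over all alternatives). RPMI plus B27 replicate 1 was far above the other libraries for NT5E.

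None of the 10 tested AMPK subunits and upstream kinases passed in either fit (0 by edgeR and 0 by the DESeq2 Wald test, with PRKAA1 at an unadjusted p of 0.0325). PRKAA1 and PRKAA2, the catalytic subunits, had log2 fold changes of 0.31 ± 0.12 (adjusted p = 0.235) and -0.45 ± 0.30 (adjusted p = 0.482, edgeR). STRADA (0.24 ± 0.17) and CAMKK2 (-0.15 ± 0.14), which act upstream, had adjusted p values of 0.511 and 0.619.

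Of 13 tested nucleotide carriers and GTP enzymes of the matrix, 0 passed by edgeR and PCK2 rose with the block, where 1.36% of all genes did, and in 2 other alternatives. PCK2, the mitochondrial enzyme that uses GTP to make phosphoenolpyruvate, was at 9.42, 4.34 and 5.56 CPM in RPMI plus B27, against 35.4, 15.7 and 39.1 CPM in DMEM plus fatty acids (log2 fold change 2.22 ± 0.42, adjusted p = 0.0583 by edgeR, 0.0131 with the block and 7.89e-06 to 0.158 over all alternatives). The media did not overlap. The ADP/ATP carriers SLC25A5 and SLC25A6 each had a log2 fold change of 0.46 (SE 0.15 and 0.14, adjusted p = 0.179 and 0.172), and SLC25A4, the heart form, had 0.07 ± 0.23 (adjusted p = 0.895, edgeR). SLC25A23, another carrier of the list, went the other way, with -0.49 ± 0.15 (adjusted p = 0.164, edgeR). Of the 13 tested genes, 7 had a higher and 6 a lower fitted level in DMEM plus fatty acids. SUCLG1 and SUCLG2, subunits of the enzyme that makes matrix GTP, had 0.07 ± 0.14 and 0.10 ± 0.13.

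**Figure D4:**
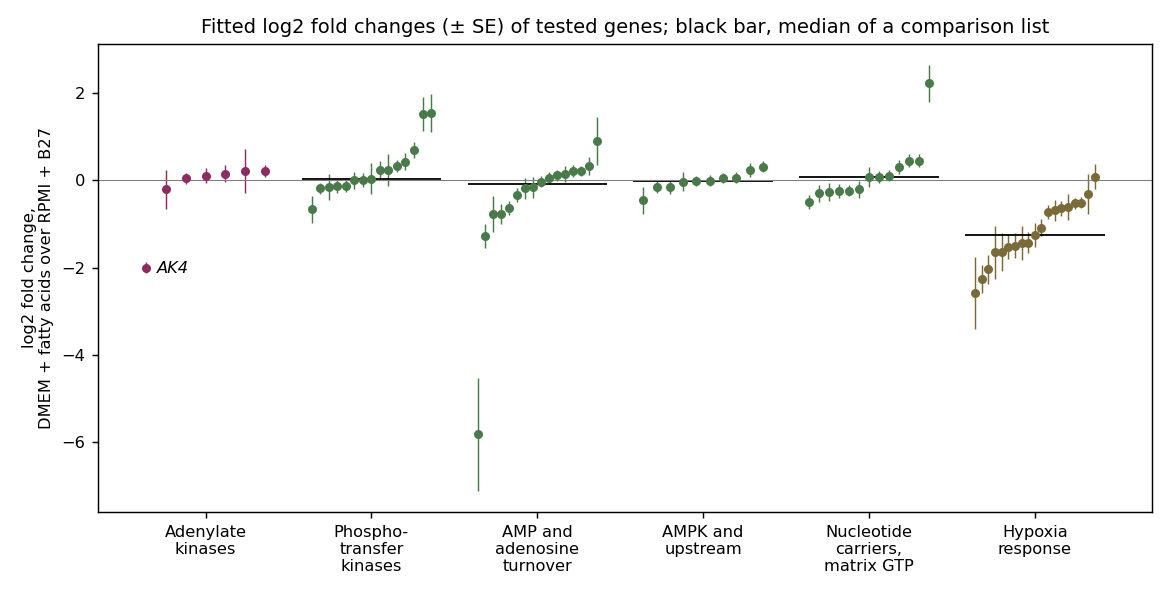
Fitted log2 fold change (± SE, vertical axis) of the 7 tested adenylate kinase genes, of the 4 lists of the adenine nucleotide network and of the hypoxia response list, each gene a point, ordered by value within its list; black bars are list medians. AK4 lies at -1.995 while the other members lie between -0.20 and 0.22, and the network medians lie between -0.09 and 0.07.

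Markers of other cell types also differed between the media. Of 12 fibroblast and stromal markers, 11 had a lower fitted level in DMEM plus fatty acids, where 49% of all genes did. By edgeR 6 fell (COL1A1, COL3A1, DCN, POSTN, FBN1 and LOX, genes of the extracellular matrix), where 1.07% of all genes did. With the block LUM and PDGFRA fell as well, where 3.42% of all genes did. The summed level of the list was 4341 to 8415 CPM in RPMI plus B27, against 758.5 to 1959 CPM in DMEM plus fatty acids. Smooth muscle markers summed to 1604 to 2040 and 356.6 to 1176 CPM. Of these 6, LMOD1 fell by edgeR and CNN1 with the block. Epicardial markers summed to 1356 to 1643 and 625.7 to 704.4 CPM, nearly all of it KRT8 and KRT19. KRT8 was at 1065 to 1480 and 538.4 to 661.7 CPM, and KRT19 at 100.2 to 280.9 and 41.6 to 84.7 CPM. Of 4 tested among the 7 epicardial markers, KRT8 fell by edgeR, and TBX18 and KRT19 with the block. Among 13 cardiomyocyte markers, 0 passed by edgeR, while MYH7 and ACTN2 fell with the block (log2 fold changes -1.27 and -0.9996 without it). Of the 13, 8 had a lower and 5 a higher fitted level. MYH6 was at 3504 to 5653 CPM in RPMI plus B27, against 6760 to 10620 CPM in DMEM plus fatty acids. Its log2 fold change was 0.86 ± 0.27 (SE, adjusted p = 0.166 by edgeR and 0.0797 with the block).

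The 6 endothelial markers summed to 29.7 to 239.5 and 114.8 to 463.5 CPM, nearly all of it KDR, at 27.5 to 238.9 and 114.5 to 463.2 CPM. KDR had an adjusted p of 0.434 by edgeR and rose with the block (0.0245). TEK was at 0.779 ± 0.33 and 0.179 ± 0.08 CPM (SD, n = 3 each, adjusted p = 0.0960, edgeR). CDH5 and ERG had no counts in DMEM plus fatty acids and at most 0.414 and 0.301 CPM in RPMI plus B27. The 4 pluripotent markers summed to 0.893 to 2.15 CPM in RPMI plus B27, against 0.258 to 0.949 CPM in DMEM plus fatty acids. No listed marker of these types was at 0 in all 6 libraries. Of these types, 4 of 6 endothelial, 4 of 7 epicardial and 4 of 4 pluripotent markers were under 1 CPM throughout. The part of these cells in the AK4 and hypoxia values was not tested. In RNA from whole cultures, fewer cells of a type and less RNA per cell cannot be told apart.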

How the data were processed

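The authors deposited raw counts per gene symbol in 1 file per library, neither normalized nor pooled. STAR, HTSeq and the build hg38 are named in the submitters' processing notes. The annotation, strand setting and versions are not given in the sources used here. Libraries held 23232324 to 31035389 gene counts, so a count of 0 allows up to 3 counts, or 0.0889 to 0.129 CPM. Summary rows, which name no gene, made up 12.8% to 15.6% of each file and were left out. Reads with more than 1 alignment were not assigned to genes, and GENCODE 29 lists 6 processed pseudogenes of AK4 and 4 of AK3, so both may be undercounted. Every member except AK3 overlaps other annotated genes, and how reads in shared stretches were assigned depends on the annotation and strand setting used.

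Counts were tested with edgeR 4.0.16 (R 4.3.3) by the quasi-likelihood test on 16107 genes passing filterByExpr (minimum count 10, minimum total 15), after TMM scaling, over all 6 libraries without covariates, with Benjamini-Hochberg adjustment at 0.05. CPM use TMM-scaled totals, and log2 CPM a prior count of 2. Intervals of fold changes are 95%. Alternatives were DESeq2 1.42.0 and its size factors, total-count scaling, 2 other filters, each library left out, and the replicate number as a block. Deviations from medium means correlated at 0.31, 0.43 and 0.37 for libraries of the same number and at -0.24 to -0.14 for others. Pairing by number was used in the block alternative and in the ratios per replicate number, while the main tests were unpaired. What a shared number stands for is not stated in the labels. All pairs of libraries differed by more than sampling noise (chi-square per degree of freedom at least 29.4). The scripts were tested on simulated data. Named genes are the members, the 5 genes most like AK4, AK1 or AK3, and from each list those passing with or without the block or up to 4 with the smallest p (marker lists with none passing were given by their sums instead). CKMT1A, CKMT1B, CKMT2, CKB, TEK, CDH5, ERG, SUCLG1, SUCLG2, SLC25A4, SLC25A5, SLC25A6, SLC25A23, VEGFA, ADM, NDRG1, CA9, DDIT4, TAF9, FOXJ1, CCDC40, MYH6, TUBB3, SNAP25, SYT1 and MAP2 were added with their values in view. The members and lists were chosen with earlier results of these data known.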

Additional observations from a re-analysis of the deposited data

How the results depend on the processing

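AK4 was picked for its difference between these media, so its values here are a description and not support. It was lower in DMEM plus fatty acids in all 12 alternatives, with log2 fold changes of -2.08 to -1.89. No other tested member passed in any of them, and those reversed were AK1 (-0.046 without DMEM plus fatty acids replicate 2), AK7 (-0.08 and -0.35 without RPMI plus B27 replicate 3 and DMEM plus fatty acids replicate 1) and AK8 (0.18 without RPMI plus B27 replicate 1), where the cause was not tested. With 1 library left out, AK1 ranged from -0.046 to 0.11, AK7 from -0.35 to 0.53 and AK8 from -0.48 to 0.18. AK8 could not be fitted when 10 counts were required in every library. The count over all genes was 219 (47 higher, 172 lower), 1212 by the DESeq2 Wald test, 539 with no filter, 119 with at least 10 counts in every library and 770 with the replicate block. It was 30, 4 and 131 without RPMI plus B27 replicates 1, 2 and 3 and 11, 12 and 3 without DMEM plus fatty acids replicates 1, 2 and 3. Scaling by total counts gave 202 (74 higher, 128 lower) and shifted the median of all fold changes (log2) from 0.01 to 0.12, and no member changed direction under it. Network genes passing numbered 0, but 7 by DESeq2, 3 with no filter and 5 with the block, and hypoxia genes 4, but 13, 8 and 11, 2 with at least 10 counts in every library, and 0 to 3 with 1 library left out. The AK4 share of counts differed by -26.9 percentage points, -28.3 to -25.8 with 1 library left out and -17.2 per exon length. The AK3 share of AK1 plus AK3 differed by 0.906 to 4.09 points with 1 library left out, and by 2.66 within pairs of the replicate block (exact sign-flip p = 0.5, smallest possible 0.25). The block changed no call among the members. Depth limits AK5 and AK8, with at most 4 and 15 counts per library.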
